A study of Saccharomyces cerevisiae with 11 samples.

Results

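The 10 genes described here code for cell wall or secreted glycoproteins of yeast and were followed as growth slowed almost to a stop. They were chosen by name and consist of the PIR family members PIR1, PIR3, HSP150 and CIS3, the GPI-type wall proteins CWP1, CWP2, SED1, SPI1 and TIP1, and YGP1. Each had 1 probe set that carries its symbol alone, and together they are 10 of the 5597 genes tested. YGP1 is neither a PIR nor a GPI gene: its product is a secreted glycoprotein. Their products are between 92 (Cwp2) and 413 (Hsp150) residues long in the S288C reference annotation.

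All cultures were of the prototrophic laboratory yeast CEN.PK113-7D, with the genotype MATa MAL2-8c SUC2, kept without oxygen and limited by glucose. A retentostat is a continuous culture whose outflow passes a filter, so that cells stay in the vessel while fresh medium keeps entering. The time course begins with 3 chemostats at steady state (day 0), growing at 0.025 per hour. It continues in retentostats 2, 9, 16 and 22 days after the outflow was filtered, at approximate growth rates of 0.0084, 0.0024, 0.0011 and 0.00063 per hour. Each retentostat day has 2 arrays, and the labels describe duplicate retentostats. The 8 retentostat arrays are therefore taken to come from 2 cultures sampled repeatedly, although the labels do not say that a replicate number marks a culture. Days in the retentostat and growth rate change together in this design and cannot be told apart. The small number of arrays limits the precision of every value.

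The yeast wall is a net of beta-glucan and chitin covered by mannoproteins. Most GPI proteins of the wall are cut from their lipid anchor at the cell surface and joined to beta-1,6-glucan. PIR proteins, named for their internal repeats, are joined directly to beta-1,3-glucan by a bond that mild alkali breaks. The makeup of this coat is known to vary with the cell cycle, oxygen, temperature, acid and nutrient supply, and yeast that grows slowly or rests is known for a wall that resists lysis.

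On the 11 arrays the deposited values had nearly equal trimmed means (300.2 to 300.3). The ratio of 5′ to 3′ actin probe sets, a sign of RNA or labelling quality, was 0.766 to 0.796 for the chemostat arrays and lowest for replicate 2 of day 16 (0.472) and of day 22 (0.341), whereas the same ratio for the TATA-binding protein lay between 0.443 and 0.604 with no such fall. The median gene of all those tested was 0.04, 0.06, 0.14 and 0.23 above the chemostats on the log2 scale on days 2, 9, 16 and 22, and 0.19 above day 2 on day 22. Log2 changes of days 16 and 22 are therefore given relative to the median gene of that comparison, and those of days 2 and 9 as fitted. The adjusted p-values are those of the fit without this shift.

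Against the chemostats, 1 of the 10 genes passed the test on day 2, 8 on day 9, 5 on day 16 and 6 on day 22 (limma, adjusted p below 0.05). Among all genes tested the shares that passed were 1.55% on day 2, 38% on day 9, 39.4% on day 16 and 42.6% on day 22. By direction, 1 of the 10 rose and 0 fell on day 2, beside 1.05% and 0.5% of all genes, and 6 rose and 2 fell on day 9, beside 22.4% and 15.6%. On day 16, 4 rose and 1 fell, beside 26.6% and 12.8% of all genes, and on day 22, 4 rose and 2 fell, beside 31.8% and 10.8%. PIR3, SPI1 and YGP1 rose most, CWP2 rose less, SED1 and TIP1 rose on day 9, and PIR1 and CIS3 fell. HSP150 and CWP1 passed on no day. The median log2 change of the 10 genes as fitted was 0.40, 0.81, 0.44 and 0.47 on days 2, 9, 16 and 22. Relative to the median gene it was 0.36, 0.75, 0.31 and 0.24. These medians join genes that rose with genes that fell. The arrays of the 2 groups did not overlap for 8 of the 10 genes on day 2, 9 on day 9, 7 on day 16 and 7 on day 22. The same was seen for 38.4%, 60.5%, 66% and 67.7% of all genes on those days. In a moderated F test over the 5 groups, 6 of the 10 genes passed (PIR3, SPI1, YGP1, PIR1, CIS3 and CWP2), beside 39.5% of all genes. There CWP2 was lost without any 1 of the chemostat arrays (limma adjusted p = 0.055293 to 0.095023), and CIS3 without chemostat replicate 1 (adjusted p = 0.078582) or 2 (adjusted p = 0.077926).

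**Figure D1:**
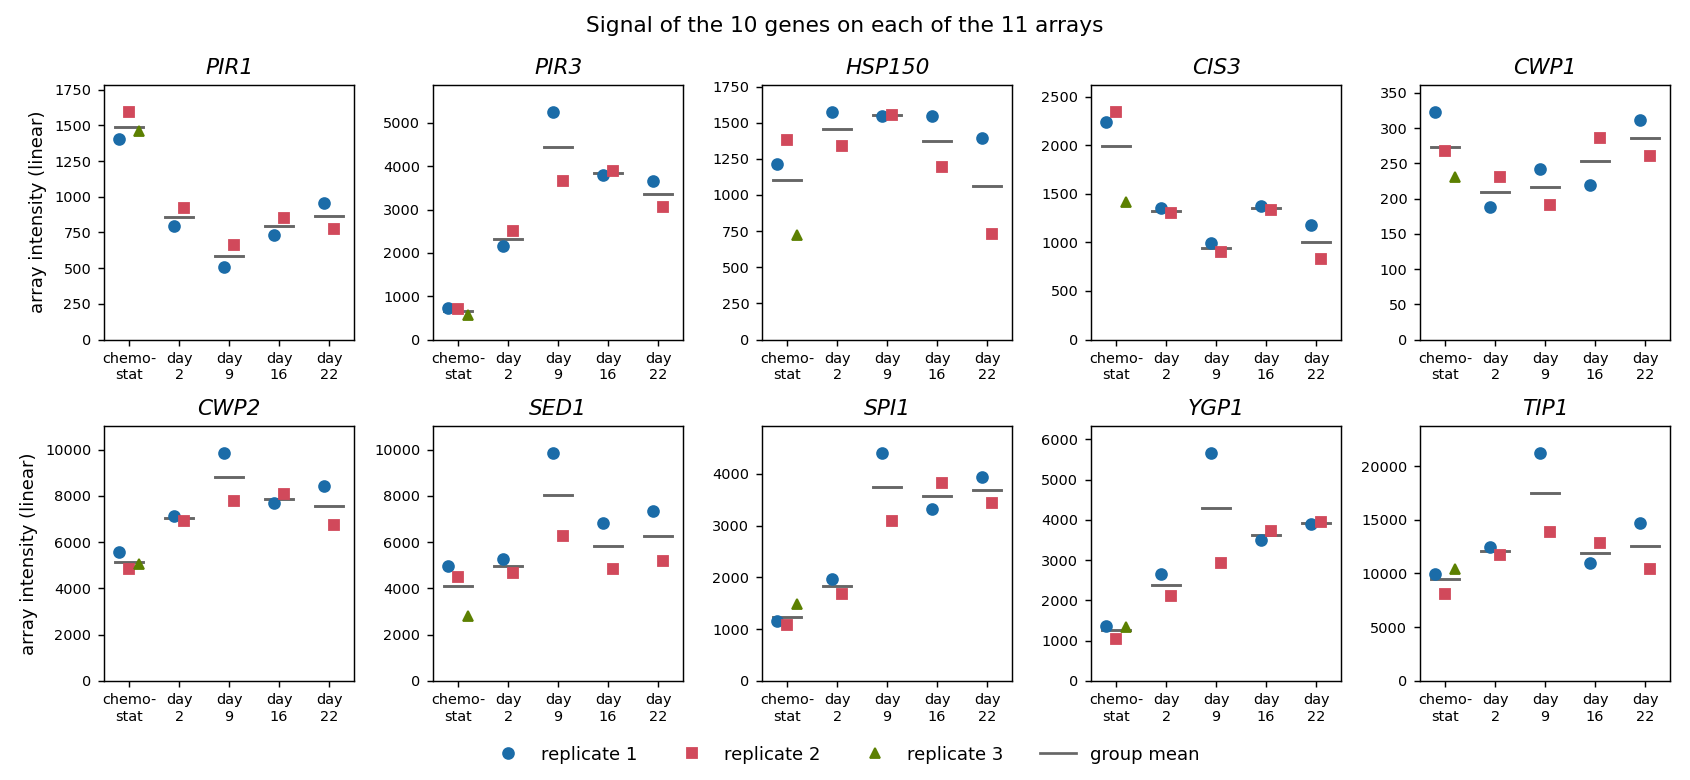
Array intensity (linear, from 0) of each of the 10 genes, with the chemostats at the left and days 2, 9, 16 and 22 to the right. Points are single arrays, marked by replicate number, and short lines mark the group means. PIR3, SPI1 and YGP1 lie above all chemostat arrays on every retentostat array, and PIR1 and CIS3 lie below all of them.

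The PIR family split. PIR3 rose 3.55-fold by day 2 and 6.67-fold by day 9, while its neighbour PIR1 fell on days 9, 16 and 22. CIS3 fell on days 9 and 22, and HSP150 did not pass on any day.

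PIR3 codes for a PIR protein of the beta-1,3-glucan layer. Its intensity was 717, 699 and 563 in the chemostats, 2161.5 and 2502 on day 2, 5249 and 3649 on day 9, 3805 and 3902 on day 16, and 3663 and 3053 on day 22. All 8 retentostat arrays lay above all chemostat arrays, with the highest value on replicate 1 of day 9. In order of the group means, chemostats, day 2, day 22 and day 16 were each separate from the next, whereas the arrays of day 16 and day 9 overlapped. The log2 change against the chemostats was 1.83 ± 0.19 on day 2 (SE, limma adjusted p = 0.0021598) and 2.74 ± 0.19 on day 9 (adjusted p = 2.4339e-05). Relative to the median gene it was 2.42 on day 16 (adjusted p = 1.9129e-05) and 2.12 on day 22 (adjusted p = 1.8908e-05), with the same SE. PIR3 was the 1 gene of the 10 to pass on day 2, where 1.05% of all genes rose. With the day 2 and chemostat arrays fitted alone, 0 of all genes passed. The day 2 change of PIR3 was the same size there, with a limma adjusted p of 0.065272. Without the 2 arrays of lowest actin ratio, that p was 0.065362.

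PIR1 codes for a PIR protein needed for wall stability. Its intensity was 1404, 1592 and 1462 in the chemostats, 792 and 924 on day 2, 511 and 661 on day 9, 731 and 854 on day 16, and 959 and 776 on day 22. No retentostat array reached the lowest chemostat array, and the lowest values were those of day 9, below both arrays of day 16. Days 16, 2 and 22 overlapped with one another in that order. On day 2 the log2 difference was -0.79 ± 0.18 and did not pass (limma adjusted p = 0.05534). PIR1 fell by day 9 with a log2 change of -1.35 ± 0.18 (adjusted p = 0.00036976). Relative to the median gene the change was -1.05 on day 16 (adjusted p = 0.0026279) and -1.01 on day 22 (adjusted p = 0.0050823). The day 2 difference of PIR1 passed under 6 of 24 alternatives. They were the arrays at 1 median, a floor of 50, a mean of at least 50, limma's trend, and leaving out either array of day 9. The day 22 fall did not pass without replicate 2 of day 22, the array with the lowest actin ratio (log2 change as fitted -0.63, adjusted p = 0.059521). With the actin ratio as a covariate its adjusted p was 0.18223. In that fit 450 of all genes passed on day 22, beside 2386 in the reported one.

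CIS3 codes for PIR protein 4, a mannosylated component of the wall. Its intensity was 2237, 2339 and 1413 in the chemostats, 1351 and 1298 on day 2, 988 and 905 on day 9, 1370.0 and 1337 on day 16, and 1180.0 and 830.3 on day 22. All retentostat arrays were below all chemostat arrays, although replicate 3 of the chemostats (1413) stood close to the day 16 arrays. CIS3 fell by day 9 (log2 change -1.04 ± 0.23, limma adjusted p = 0.0055726) and by day 22 (-1.21 relative to the median gene, adjusted p = 0.0063254). On days 2 and 16 the log2 differences were -0.56 (adjusted p = 0.26329) and -0.66 relative to the median gene (adjusted p = 0.091418). Without chemostat replicate 3, the day 16 change of CIS3 passed (adjusted p = 0.013134). Without replicate 2 of day 22, the day 22 change as fitted was -0.72 and did not pass (adjusted p = 0.089028), and with the actin ratio as a covariate its adjusted p was 0.35464.

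HSP150 codes for PIR protein 2, an O-mannosylated protein that is secreted and induced by heat. Its intensity was 1215, 1377 and 723 in the chemostats, 1572 and 1340.2 on day 2, 1548 and 1553 on day 9, 1546 and 1196 on day 16, and 1396 and 728 on day 22. Replicate 3 of the chemostats and replicate 2 of day 22 stood far below the other arrays, at 723 and 728, and all groups next to each other in the order of their means overlapped. The log2 difference of HSP150 was 0.45 on day 2 and 0.54 on day 9, and relative to the median gene it was 0.22 on day 16 and -0.31 on day 22, with an SE of 0.31. Its limma adjusted p lay between 0.18955 and 0.86429 on the 4 days. The SD of its chemostat log2 values was 0.49, beside a median of 0.15 over all genes tested.

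**Figure D2:**
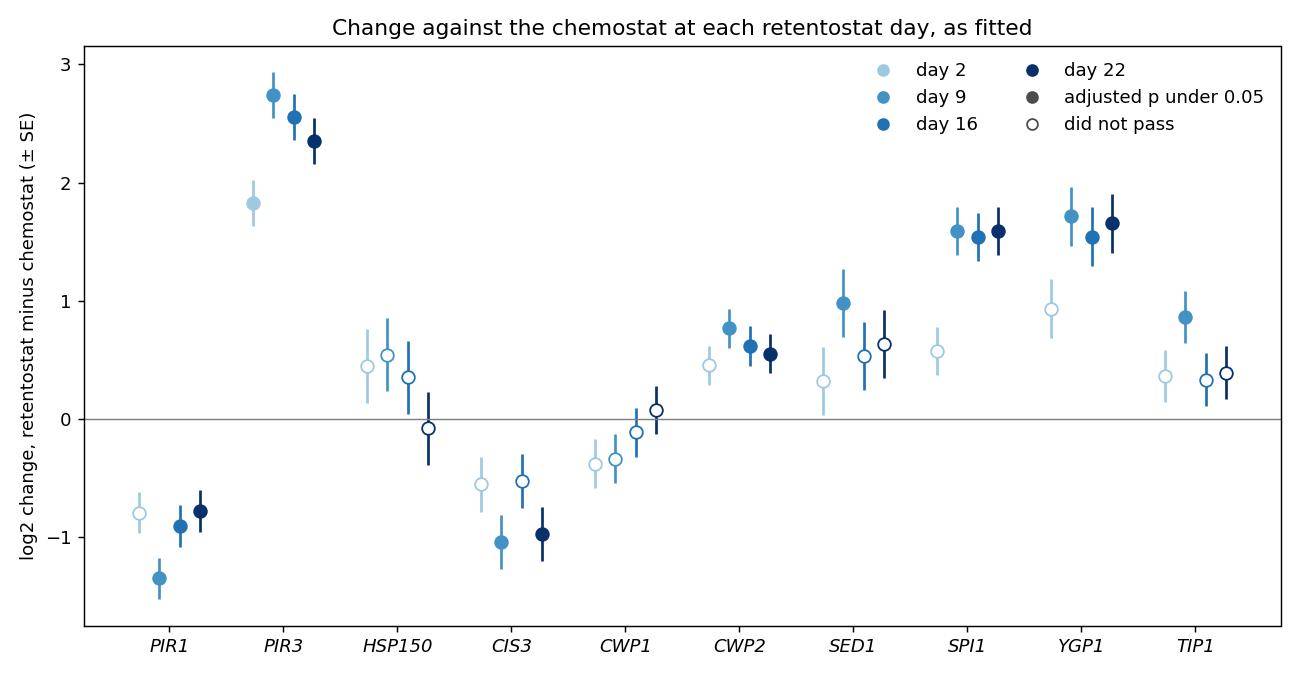
Log2 change of each gene against the chemostats on days 2, 9, 16 and 22, as fitted and with bars of 1 SE. Filled points passed at an adjusted p below 0.05, and open points did not. The shift of the median gene is not subtracted here. PIR3 has the highest points on all 4 days, and PIR1 and CIS3 have all points below 0.

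PIR1 and PIR3 are neighbours on chromosome XI (YKL164C and YKL163W) and are transcribed away from each other. HSP150 and CIS3 (YJL159W and YJL158C) are neighbours on chromosome X and are transcribed towards each other. CWP2 and CWP1 (YKL096W-A and YKL096W) follow each other on the same strand of chromosome XI. Within each array, the log2 difference between the genes of a pair does not depend on the factor by which an array was scaled, and its shift shows unequal change of the pair.

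The difference PIR3 minus PIR1 was shifted from the chemostat mean by 2.63 and 2.62 on the day 2 arrays, 4.54 and 3.64 on day 9, 3.56 and 3.37 on day 16, and 3.11 and 3.15 on day 22. The chemostat arrays lay between -0.20 and 0.21 of their mean. Averaged by replicate number, the shift of PIR3 minus PIR1 was 3.46 and 3.20 in the retentostats, beside a chemostat SD of 0.20. For HSP150 minus CIS3, the averages were 1.19 and 0.99 beside an SD of 0.10, and each retentostat array (0.68 to 1.65) lay above each chemostat array (-0.10 to 0.11). For CWP2 minus CWP1 they were 0.88 and 0.70 beside an SD of 0.18, with retentostat arrays at 0.44 to 1.11 and chemostat arrays at -0.14 to 0.21. In all 3 pairs the groups were separate. The share of other gene pairs that are separate in this way was not computed, so this is not read as particular to these pairs. Each replicate number was taken as 1 retentostat, which the labels do not state. With 2 retentostats and 3 chemostats an exact two-sided permutation test cannot give a p below 0.1, and it gave 0.1 for each of the 3 pairs.

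**Figure D3:**
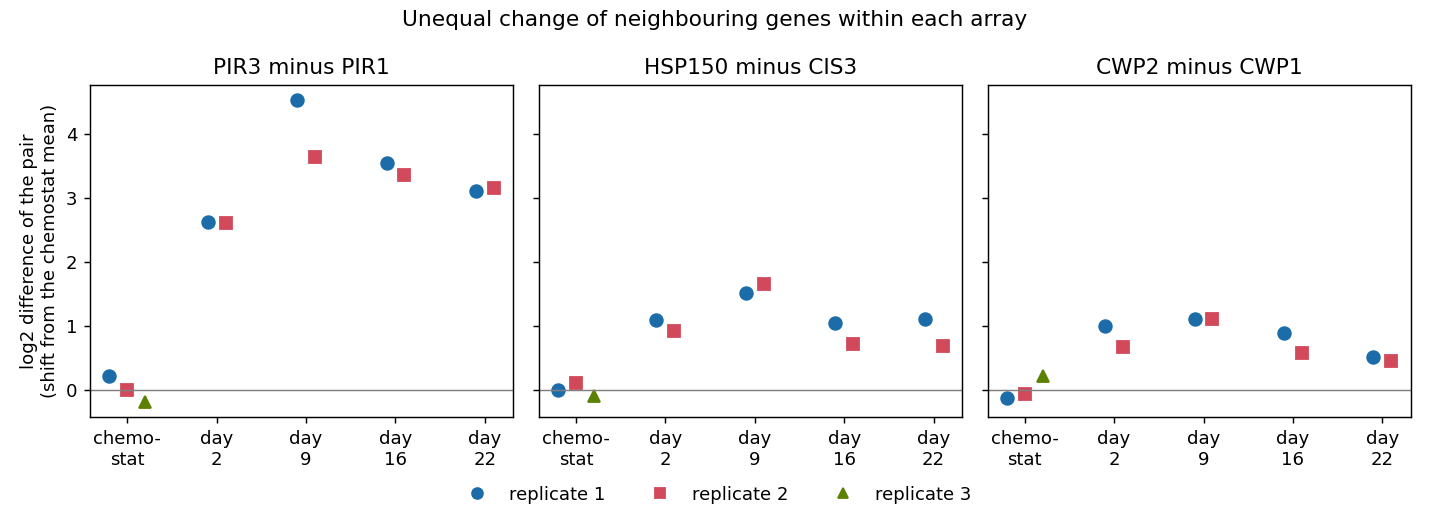
Log2 difference between neighbouring genes on each array (vertical axis), as the shift from its mean in the chemostats, by group along the horizontal axis. PIR3 minus PIR1 reaches its highest value, 4.54, on replicate 1 of day 9. In all 3 panels every retentostat array lies above every chemostat array, and the share of other gene pairs was not computed.

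Among the GPI-type proteins, SPI1 rose about as much on days 9, 16 and 22, and CWP2 rose on the same days by less. SED1 and TIP1 passed on day 9 alone, and CWP1 on no day.

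SPI1 codes for a GPI wall protein that is known to protect cells from weak acids. Its intensity was 1155, 1079.6 and 1477 in the chemostats, 1973 and 1679.8 on day 2, 4396 and 3081 on day 9, 3320.2 and 3828 on day 16, and 3947 and 3439 on day 22. The day 2 arrays lay just above the chemostats, and the 6 later arrays lay far above both, overlapping with one another. On day 2 the log2 difference was 0.57 ± 0.20 (limma adjusted p = 0.1954). On day 9 SPI1 rose 3.00-fold, a log2 change of 1.59 ± 0.20 (adjusted p = 0.00033849). Relative to the median gene the change was 1.40 on day 16 (adjusted p = 0.00032083) and 1.36 on day 22 (adjusted p = 0.00022056). These 3 calls were kept under all 24 alternative settings.

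CWP2 codes for a small, abundant mannoprotein known to add to the stability of the wall at low pH. Its intensity was 5551, 4843 and 5057.5 in the chemostats, 7148 and 6907 on day 2, 9834 and 7785 on day 9, 7688 and 8066.5 on day 16, and 8417.5 and 6719.8 on day 22. All retentostat arrays were above all chemostat arrays, and the retentostat days overlapped one another in the order of their means. The day 2 difference was 0.45 ± 0.17 on the log2 scale (limma adjusted p = 0.21177). CWP2 rose 1.70-fold by day 9, a log2 change of 0.77 (adjusted p = 0.0050313), and by 0.48 on day 16 (adjusted p = 0.013745) and 0.32 on day 22 (adjusted p = 0.021265) relative to the median gene. The day 9 call was kept under all 24 alternatives. With the arrays scaled to 1 median, CWP2 did not pass on day 16 (adjusted p = 0.076326) or day 22 (adjusted p = 0.27118). The day 16 call was also lost without replicate 2 of day 16 (adjusted p = 0.083523). That of day 22 was lost without chemostat replicate 2 (adjusted p = 0.069673), without replicate 1 of day 22 (adjusted p = 0.14155) and with the actin covariate (adjusted p = 0.19134).

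CWP1 codes for a GPI mannoprotein known from birth scars. Its intensity was 322, 268 and 231 in the chemostats, 188.5 and 230.0 on day 2, 242 and 190.5 on day 9, 219 and 286 on day 16, and 312 and 261 on day 22. In the order of their means each group overlapped with the next, and day 2 was lowest. Both day 2 arrays lay below all chemostat arrays, the higher one (230.0) only just. The log2 difference was -0.38 on day 2 and -0.34 on day 9, and -0.25 on day 16 and -0.16 on day 22 relative to the median gene, with an SE of 0.21 and limma adjusted p-values between 0.21653 and 0.80867. As fitted, the day 22 difference of CWP1 was 0.07, so its sign turns with the scaling.

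SED1 codes for a major GPI protein of the wall that is induced by stress and in resting cells. Its intensity was 4948.5, 4502 and 2823 in the chemostats, 5278 and 4648 on day 2, 9832 and 6245 on day 9, 6832.5 and 4854 on day 16, and 7333 and 5170.3 on day 22. Both arrays of day 9 and of day 22 lay above all chemostats, while the day 2 and day 16 arrays overlapped with them. SED1 rose 1.97-fold on day 9 (log2 change 0.98 ± 0.29, limma adjusted p = 0.02159). On day 2 the difference was 0.32, and relative to the median gene it was 0.40 on days 16 and 22 (adjusted p = 0.63793, 0.16369 and 0.0997). The day 9 call of SED1 was lost without replicate 1 of day 9 (log2 change 0.65, adjusted p = 0.19452), without replicate 3 of the chemostats (0.73, adjusted p = 0.060758) and with the arrays compared fitted alone (adjusted p = 0.078528). On day 22 it passed under quantile normalization (adjusted p = 0.04233).

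TIP1 codes for a mannoprotein of the wall that is induced by cold and heat shock. Its intensity was 9961, 8087 and 10447 in the chemostats, 12494 and 11762 on day 2, 21180.0 and 13893 on day 9, 10990.0 and 12838 on day 16, and 14735 and 10395 on day 22. Replicate 1 of day 9 was the highest, replicate 2 of day 9 was close to the higher day 22 array, and on day 22 the lower array fell among the chemostats. TIP1 rose 1.82-fold on day 9 (log2 change 0.86 ± 0.22, limma adjusted p = 0.011831). The differences of the other days were 0.36 on day 2, and 0.19 on day 16 and 0.16 on day 22 relative to the median gene (adjusted p between 0.1782 and 0.44995). Without replicate 1 of day 9 the day 9 change of TIP1 was 0.56 and did not pass (adjusted p = 0.11751). Under quantile normalization it was 0.13 (adjusted p = 0.40385). That setting gives every array the same set of values, which limits the change that the brightest genes can show.

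YGP1 codes for a secreted glycoprotein that is known to be made when nutrients run short. Its intensity was 1356, 1047.5 and 1346 in the chemostats, 2648.5 and 2118 on day 2, 5648 and 2935 on day 9, 3504 and 3718.5 on day 16, and 3887 and 3935 on day 22. Both arrays of each day lay above all chemostats, and the arrays of day 2, day 16 and day 22 were separate in that order, with those of day 9 spread across the later days. The day 2 difference was 0.93 ± 0.25 on the log2 scale (limma adjusted p = 0.096781). YGP1 rose 3.28-fold by day 9, a log2 change of 1.71 (adjusted p = 0.00064149), and by 1.40 on day 16 (adjusted p = 0.00098633) and 1.42 on day 22 (adjusted p = 0.00056349) relative to the median gene. Without replicate 1 or replicate 2 of day 9, the day 2 change of YGP1 passed as well (adjusted p = 0.024409). With the actin ratio as a covariate the day 22 change did not (adjusted p = 0.078708).

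Replicate 1 of day 9 held the highest of the 11 values for 6 of the 10 genes, PIR3, CWP2, SED1, SPI1, YGP1 and TIP1. Its mean over all probe sets was 443.2, beside 390.2 to 413.4 on the other arrays, and its median was the lowest of the 11 at 76.1. In the fit without this array, the log2 change of day 9 was 2.48 for PIR3, 1.33 for SPI1, 1.24 for YGP1 and 0.60 for CWP2, and all 4 passed. Replicate 3 of the chemostats was the lowest chemostat array for PIR3, HSP150, CIS3, CWP1 and SED1. The shares of all genes with such extremes on these arrays were not computed, so neither count is read as particular to the 10 genes.

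Between retentostat days, the calls were few. On day 9 against day 2, PIR3 was higher by 0.91 ± 0.21 (limma adjusted p = 0.033583) and SPI1 by 1.02 ± 0.22 (adjusted p = 0.025454) on the log2 scale, 2 of the 10 genes beside 5.81% of all genes. Between day 16 and day 9, 0 of the 10 passed (1 at an unadjusted p below 0.05, PIR1), beside 0.0179% of all genes. Between day 22 and day 16, 0 passed in limma, with 0 at an unadjusted p below 0.05 and 0% of all genes called. Day 22 against day 2 gave 1 call, SPI1, which was 0.83 ± 0.22 above day 2 relative to the median gene (adjusted p = 0.01228), beside 16.7% of all genes. In the F test over the 4 retentostat days SPI1 passed (adjusted p = 0.026581), PIR3 had an adjusted p of 0.058324, and 11.8% of all genes passed.

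These calls between days turned on single arrays. That of PIR3 on day 9 against day 2 was kept under 13 of 25 alternatives and that of SPI1 under 18 of 25. Leaving out 1 array, PIR3 was lost without chemostat replicate 1 or 2, without either array of day 2, 16 or 22 and without replicate 1 of day 9 (limma adjusted p = 0.052929 to 0.15914). SPI1 was lost without either array of day 2 or 22 and without replicate 1 of day 9 (adjusted p = 0.050296 to 0.13602). With the replicate block in the retentostat arrays only, the adjusted p of PIR3 was 0.068049. Without replicate 1 of day 9 the day 9 against day 2 change was 0.65 for PIR3 (adjusted p = 0.15914) and 0.76 for SPI1 (adjusted p = 0.13602). Without replicate 2 of day 9, 4 of the 10 genes passed this comparison, PIR1 (-0.74, adjusted p = 0.036955) and YGP1 (1.25, adjusted p = 0.0082963) being the additional ones. The call of SPI1 between day 22 and day 2 was lost without replicate 2 of day 2 (adjusted p = 0.070325), replicate 1 of day 22 (adjusted p = 0.072064) or replicate 2 of day 22 (adjusted p = 0.064222).

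The other genes of the wall and of its regulation were counted on day 22 against the chemostats, where 31.8% of all genes tested rose and 10.8% fell. Medians and changes of this list account are relative to the median gene. With the actin covariate, used below, 450 of all genes passed on this day, beside 2386 in the reported fit. Of 7 DAN and TIR mannoproteins, which coat the wall of cells without oxygen, 0 rose and 6 fell, with a median of -1.73. With the actin covariate 3 fell. Among them PAU23, which the list holds under its older name DAN2, fell by 3.71 (limma adjusted p = 0.00010849) and DAN1 fell by 2.11 (adjusted p = 3.3798e-05). Both calls were kept under all 24 alternatives. TIR1 had a log2 difference of -0.02 and did not pass. Of the 5 GPI-type genes described above, CWP2 and SPI1 rose on this day.

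Of 21 other wall proteins, 3 rose and 7 fell (median -0.17), and with the actin covariate 2 rose and 1 fell. NCA3, of the SUN family, rose by 1.96 (limma adjusted p = 4.3794e-05), and PST1, a GPI protein secreted by protoplasts that rebuild their wall, rose by 0.78 (adjusted p = 0.0032539). TOS6 (-2.54, adjusted p = 0.00080806) and SVS1 (-1.98, adjusted p = 0.00047641), both known for transcription tied to the cell cycle, fell. With the actin covariate neither of these falls passed. PIR5, the family member next to HSP150, had intensities near the low end of the arrays (mean 32.4 on day 22 and 23.5 in the chemostats) and did not pass (adjusted p = 0.27674). CCW12, an abundant GPI protein of the wall, had a log2 difference of 0.13 (adjusted p = 0.17662).

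Of 21 genes of wall integrity signalling, 10 rose and 1 fell (median 0.10). This split turned with the scaling: 4 rose and 4 fell under quantile normalization and likewise with the arrays at 1 median, and 2 rose and 0 fell with the actin covariate. SDP1, a phosphatase that acts on the kinase Slt2, rose by 1.70 (limma adjusted p = 2.4189e-05), WSC4, of the WSC sensor family, rose by 0.81 (adjusted p = 0.002144), and the sensor gene WSC3 fell by 0.82 (adjusted p = 0.03105). The fall of WSC3 was lost without any 1 of the chemostats (adjusted p = 0.05013 to 0.081148) or without replicate 1 of day 22 (adjusted p = 0.26886), and also with the replicate block over all arrays (adjusted p = 0.073316), the compared arrays alone (adjusted p = 0.060695) or the actin covariate (adjusted p = 0.11453). Without replicate 1 of day 22 5 of the list rose, and without replicate 2 of day 22, 6 rose. The kinase gene SLT2 had a difference of -0.41 (adjusted p = 0.4628). Of 9 genes known as outputs of the pathway through the factor Rlm1, 2 rose and 0 fell (median -0.24), PST1 as above and BGL2, a wall glucan transferase, by 0.22 (adjusted p = 0.030941). BGL2 did not pass with the arrays at 1 median, nor without chemostat replicate 1 or 2 or replicate 1 of day 22 (adjusted p = 0.063467 to 0.17484).

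**Figure D4:**
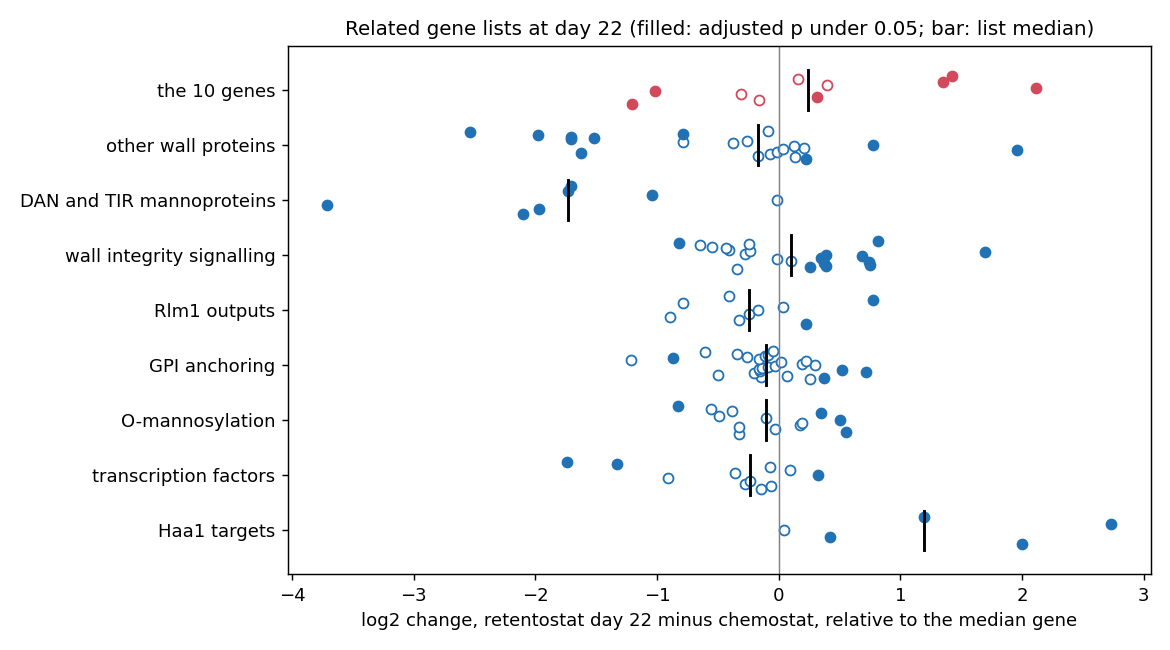
Log2 change on day 22 against the chemostats, relative to the median gene (horizontal axis), for each gene of the 10 described and of 8 lists of related genes. Filled points passed at an adjusted p below 0.05, open points did not, and bars mark list medians. The DAN and TIR mannoproteins have the lowest median, -1.73.

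Of 26 genes of GPI anchor synthesis, attachment and remodelling, 3 rose and 1 fell (median -0.10), and 1 rose and 1 fell under both other scalings. GAB1, a subunit of the transamidase that attaches the anchor, rose by 0.72 (limma adjusted p = 0.0016341), GPI10, a mannosyltransferase of anchor synthesis, rose by 0.52 (adjusted p = 0.024359), and GPI8, the catalytic subunit of the transamidase, fell by 0.87 (adjusted p = 0.027347). GPI10 did not pass under either other scaling, and none of the 3 passed with the actin covariate. GPI10 was also lost without chemostat replicate 2 or either day 22 array (adjusted p = 0.082188 to 0.1364), and GPI8 without these or chemostat replicate 3 (adjusted p = 0.050257 to 0.16731). Of 13 genes of O-mannosylation and the processing protease gene KEX2, 3 rose and 1 fell (median -0.10), but 1 rose and 2 fell under quantile normalization and 1 rose and 3 fell at 1 median. KRE2 (0.55, adjusted p = 0.0054738) and MNT3 (0.50, adjusted p = 0.039656), mannosyltransferases of the Golgi, rose, and PMT6 (-0.83, adjusted p = 0.0074723), a protein mannosyltransferase, fell. MNT3 was lost under both other scalings and without chemostat replicate 1 or 2 or either day 22 array (adjusted p = 0.093254 to 0.16186). It was also lost with no floor beyond 1, with no filter, with the replicate block over all arrays and without the 2 arrays of lowest actin ratio (adjusted p = 0.05104 to 0.060857). KRE2 and PMT6 were lost with the actin covariate.

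Of 11 transcription factors known to act on wall genes, 1 rose and 2 fell (median -0.23), and 0 rose and 3 fell under both other scalings. UPC2, an activator of DAN and TIR genes, fell by 1.74 (limma adjusted p = 0.00060126), SWI5, an activator of genes expressed late in mitosis, fell by 1.33 (adjusted p = 0.0041222), and the stress factor gene MSN4 rose by 0.32 (adjusted p = 0.013832), a call that did not pass under either other scaling. With the actin covariate none of these 3 passed, and the call of SWI5 was also lost without replicate 1 of day 22 (adjusted p = 0.050417) and that of MSN4 without replicate 2 (adjusted p = 0.10102). HAA1 codes for the factor of the weak acid response that is known to act on SPI1 and YGP1. HAA1 itself had a difference of -0.14 (limma adjusted p = 0.7041). As fitted the difference of HAA1 was positive, so its sign turns with the scaling. Of 5 other targets of Haa1 that were tested, 4 rose and 0 fell (median 1.195), and with the actin covariate 2 rose. TPO2, a polyamine exporter, rose by 2.73 (adjusted p = 1.3203e-05), and GRE1, a hydrophilin, rose by 2.00 (adjusted p = 0.0010769), a call lost with the actin covariate (adjusted p = 0.15236).

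The genes whose log2 values over the 11 arrays ran most closely with each of the 10 were found among 2731 genes with a standard name that varied by at least 1 on the log2 scale. These correlations share the same arrays, 8 of them taken to be from 2 cultures, and are a description of this time course. The closest were YMC2 for PIR1 (r = 0.97), OYE3 for PIR3 (r = 0.98), CSI2 for CIS3 (r = 0.94) and RTS3 for HSP150 (r = 0.88). Among the GPI-type genes they were MIM1 for SPI1 (r = 0.99), the chaperone gene HSP26 for CWP2 (r = 0.98), DPI8 and the wall protein gene CCW12 for TIP1 (both r = 0.98), GLY1 for SED1 (r = 0.92) and RSC4 for CWP1 (r = 0.91). AHA1, a co-chaperone gene, was the closest to YGP1 (r = 0.98) and the second closest to PIR3 (r = 0.98). Among the 10 themselves, r was 0.97 for SPI1 with YGP1, 0.95 for PIR3 with YGP1 and for PIR3 with CWP2, -0.92 for PIR1 with PIR3, and 0.12 for HSP150 with CIS3.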

How the data were processed

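Total RNA from chemostat and retentostat cultures was measured on 11 one-colour oligonucleotide arrays. The deposited values are linear intensities, made with GCOS 1.2 per the submitters' processing notes. The sources used here do not give the settings of that software, and arrays give no read depth. The deposited scaling was kept, since trimmed means (2% at each end) differed by 0.0218% at most. Of 9335 probe sets, 60 were controls, 6504 carried 1 gene symbol in the platform annotation, 328 several and 2443 none, and only those with 1 were used. Values below 12 were set to 12, log2 was taken, and the probe set of highest mean was kept for the 315 genes with several. Leaving out 59 genes that stood at this floor everywhere gave 5597 to test. Probe sequences were not used, so signal from a close copy, as between PIR family members, cannot be separated.

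Group means were estimated by limma (version 3.58.1, under R 4.3.3) in 1 model of all 11 arrays, with 6 residual degrees of freedom and 4.85 from the prior, after the script was tested on simulated data. Benjamini-Hochberg adjustment of two-sided p-values ran over all genes of a comparison, with a threshold of 0.05, and the fits treat arrays of 1 culture on different days as independent. All 4 comparisons with the chemostats share the same 3 chemostat arrays. SE is that of the log2 change. The 10 genes, the 8 lists and the tests were chosen with earlier results of these data known. From each list, up to 2 risen and 2 fallen genes with the largest changes among those that passed were named. TIR1, PIR5, CCW12, SLT2 and HAA1 were named after their values were seen. Annotation of S288C assembly R64 was used for names, lengths and neighbours. List symbols CCW22, DAN3 and ERI1 found no match in the table and were not analysed, nor were promoter and protein sequences. Alternatives were quantile normalization, scaling to 1 median, a floor of 1 or 50, a mean of at least 50, no filter, averaged probe sets, the compared arrays alone, a replicate block, culture as a random block, limma's trend, the actin ratio as a covariate, leaving out the 2 arrays of lowest actin ratio, and leaving out each array.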

Additional observations from a re-analysis of the deposited data

How the results depend on the processing

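Each change of the 10 genes against the chemostats was recomputed under 24 alternatives, 11 of which leave out 1 array. Of 20 calls, 12 were kept under all of them (PIR1 on days 9 and 16, PIR3 and SPI1 on days 9, 16 and 22, YGP1 on days 9 and 16, CIS3 and CWP2 on day 9). The other 8 were lost under at least 1, and 4 of the 20 differences that did not pass did so under at least 1. All 3 calls between retentostat days were lost under at least 1 of their 25 alternatives. No call changed sign.

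The number of the 10 genes that passed, with the value of the reported fit in brackets, moved as follows. On day 2 against the chemostats (1) it was 2 with the arrays at 1 median, a floor of 50, a mean of at least 50 or limma's trend, and 0 with the compared arrays alone or without the 2 arrays of lowest actin ratio. On day 22 (6) it was 2 with the actin covariate. On day 9 against day 2 (2) it was 0 with the compared arrays alone or without the 2 arrays of lowest actin ratio. On day 22 against day 2 (1) it was 2 under quantile normalization and 0 at 1 median, with the actin covariate or without those 2 arrays. In the F test over the 4 days (1) it was 2 with a mean of at least 50, culture as a random block or limma's trend, and 0 at 1 median, with the retentostat arrays alone, with the actin covariate or without those 2 arrays. Leaving out 1 array at a time gave 1 to 3 on day 2, 6 to 8 on day 9, 4 to 6 on day 16, 4 to 6 on day 22, 0 to 4 on day 9 against day 2, 0 to 2 on day 22 against day 2, 4 to 7 in the F test over 5 groups and 0 to 3 in that over 4 days. A lone array is assumed to vary like the other groups. The causes of these moves were not tested.

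With the replicate number as a block over all 11 arrays, 1, 8, 6 and 6 genes passed on days 2, 9, 16 and 22, CIS3 on day 16 being added. With the replicate block in the retentostat arrays only, 1 passed on day 9 against day 2 and 0 in the F test over the 4 days. The labels do not say that a number marks a culture, and the deviations of same-numbered arrays correlated across genes with r between 0.066 and 0.39 over the 6 pairs of days.

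Over all genes, the counts that passed on days 2, 9, 16 and 22 (87, 2127, 2206 and 2386) ranged over 0 to 158, 1250 to 2227, 995 to 2526 and 450 to 2674. On day 22 against day 2 the 937 calls ranged over 127 to 1171, and on day 9 against day 2 the 325 ranged over 0 to 1074. In the F tests, 2210 ranged over 1042 to 2778 and 660 over 64 to 1366. On day 22, 1782 genes rose and 604 fell with the deposited scaling, 1161 and 1096 under quantile normalization, and 1005 and 1130 at 1 median. On day 16 the counts were 1488 and 718, against 1126 and 1087, and 1112 and 1039. The lowest day 22 counts over all genes, 450 against the chemostats and 127 against day 2, came with the actin covariate. Those of day 2 against the chemostats and of day 9 against day 2, both 0, came with the compared arrays alone. The actin ratio was 0.571 and 0.341 on day 22, beside 0.766 to 0.796 in the chemostats, so it changed partly together with day. Signal over background was not used to weigh values, and 2 arrays a day limit all of them.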

Other observations

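Some of the related wall genes passed the test on day 2, in calls that were lost with the compared arrays alone or when single arrays were left out. On day 2 against the chemostats, the anaerobic mannoprotein gene DAN4 fell by 1.52 (limma adjusted p = 0.015074), the SUN family gene SUN4 fell by 1.32 (adjusted p = 0.030356) and SWI5 fell by 1.14 (adjusted p = 0.045202) on the log2 scale, while NCA3 rose by 1.37 (adjusted p = 0.015074) and the Haa1 target gene YRO2 rose by 1.43 (adjusted p = 0.014583). These 5 calls were 1 of 7 DAN and TIR genes, 2 of 21 other wall proteins, 1 of 11 transcription factors and 1 of 5 Haa1 targets. On that day 1.55% of all genes passed, and 0 passed with the compared arrays alone. DAN4, NCA3 and YRO2 were kept under 16 of 24 alternatives, SUN4 under 10 and SWI5 under 9. All 5 were lost with the compared arrays alone, without the 2 arrays of lowest actin ratio, and without chemostat replicate 1 or 2 or any 1 of the day 2 or day 22 arrays. SUN4 and SWI5 were also lost without chemostat replicate 3 or either day 16 array, with no floor beyond 1, with no filter and with the actin covariate, and SWI5 with the replicate block (limma adjusted p = 0.067497). The highest adjusted p of these genes over the alternatives lay between 0.12854 (YRO2) and 0.20462 (SWI5). The wall integrity, GPI anchor, O-mannosylation and Rlm1 output lists (21, 26, 13 and 9 genes) gave 0 calls on day 2 in limma. At an unadjusted limma p below 0.05 they held 4, 0, 3 and 0.

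On day 9, when 38% of all genes passed, TIR1 rose by 0.90 (limma adjusted p = 0.024335) while PAU23 fell by 2.73 (adjusted p = 0.00059857), both among the mannoproteins of cells without oxygen. CCW12 rose by 0.75 (adjusted p = 0.016248), and SUN4 fell by 1.89 (adjusted p = 0.000375). Of the 9 outputs of the wall integrity pathway through Rlm1, 1 rose and 2 fell. PRM5 fell by 1.07 (adjusted p = 0.024458), and CRH1, a transglycosylase that links chitin to glucan, fell by 0.90 (adjusted p = 0.021368), while PST1 rose by 0.67 (adjusted p = 0.027172). The other lists are not described for this day. The changes of PAU23, DAN4, NCA3, SUN4 and SVS1 were kept under all 24 alternatives. Those of TIR1, CCW12, PRM5, CRH1 and PST1 were all lost without replicate 1 of day 9 and without chemostat replicate 2. TIR1, PRM5 and CRH1 were also lost without chemostat replicate 1, and PST1 without chemostat replicate 3. Under quantile normalization the calls of TIR1, CCW12 and PST1 were lost, with a difference of 0 for CCW12 there. That setting can show no change for a gene of equal rank on all arrays. The mean intensity of CCW12 was 19351 on day 9 and 11410 in the chemostats. PRM5 was lost with the actin covariate, CRH1 and PST1 with the compared arrays alone, and PST1 with the replicate block (limma adjusted p = 0.060015).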
